A study of Homo sapiens with 6 samples.

Results

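The genes of glycolysis and of the pentose phosphate pathway were examined in MDA-MB-231 cells with and without knockdown of YAP1. The set is a list of 36 genes taken by symbol, from the glucose transporters through the glycolytic enzymes to lactate handling, pyruvate entry into mitochondria and the pentose phosphate shunt. All rows that shared a gene identifier were summed to a gene value in FPKM (fragments mapped to a transcript, scaled to its length and to the library's mapped fragments). Of the 36 genes, 35 reached 0.5 FPKM on average across the 6 libraries and were tested, among 14770 genes tested and 60612 gene identifiers in all. The gene below that level was SLC16A1, which encodes the lactate transporter MCT1.

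MDA-MB-231 is an established triple-negative breast cancer line, which lacks oestrogen receptor, progesterone receptor and HER2 amplification. Cells stably expressing a control hairpin (Sh-NC, labelled WT) were compared with cells stably expressing a hairpin against YAP1 (Sh-YAP1, labelled as the knockdown), with 3 libraries in each group, all labelled as untreated and collected at day 3. YAP1 is a transcriptional co-activator of the Hippo pathway that acts mainly through TEAD factors, and the comparison asks which transcripts differ when it is reduced. The labels do not say whether the 3 libraries of a group came from separate cultures, so the p-values measure the spread between these libraries, which may be technical. There is 1 group with a hairpin against YAP1, so effects of YAP1 loss and effects of the hairpin on other transcripts cannot be told apart.

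Glycolysis splits glucose to pyruvate in the cytosol and yields ATP and NADH. Its flux is set largely at glucose uptake, at hexokinase and at phosphofructokinase-1, and fructose 2,6-bisphosphate, made and removed by the PFKFB enzymes, is the strongest known activator of phosphofructokinase-1. Lactate dehydrogenase turns pyruvate into lactate, whereas pyruvate dehydrogenase sends it to mitochondria. The pentose phosphate pathway branches off at glucose 6-phosphate and supplies NADPH and ribose. Many tumour cells take up much glucose and release lactate even with oxygen present, and HIF-1 and MYC are known activators of many of these genes.

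YAP1 itself was 28.12, 26.24 and 22.87 FPKM in the Sh-NC libraries and 3.35, 2.67 and 2.58 FPKM in the Sh-YAP1 libraries, 8.98 times lower by the ratio of means, as the labels give the groups. The mesenchymal markers of the line were present, with VIM between 1645 and 2303 FPKM, CD44 between 114 and 147 FPKM and AXL between 190 and 261 FPKM. SPARC was low, at 2.25, 3.85 and 2.15 FPKM in Sh-NC and 1.65, 1.41 and 1.06 FPKM in Sh-YAP1. Its groups did not overlap, and it was not called (log2 difference -0.64, limma adjusted p = 0.129). AXL fell in Sh-YAP1 (log2 difference -0.35, limma with Benjamini-Hochberg adjustment, adjusted p = 0.0390), a call that was lost in all 6 fits that left out a library while the difference stayed between -0.38 and -0.31, and also with no filter on low values and with no mean-variance trend (limma adjusted p up to 0.0832). Of the luminal and epithelial markers, ESR1 stayed at or below 0.07 FPKM, PGR at or below 0.01 FPKM and CDH1 at or below 0.49 FPKM, whereas KRT8 and KRT18 were present at 99.9 to 164 FPKM and ERBB2 at 14.3 to 18.1 FPKM. Fibroblast markers summed to 8.78 to 11.7 FPKM in Sh-NC and 5.20 to 11.2 FPKM in Sh-YAP1, with COL1A2 at 0.97 to 1.96 and 0 to 0.72 FPKM (log2 difference -0.91) and COL1A1 at 6.15 to 7.52 and 3.64 to 8.32 FPKM (-0.11), neither of them called. Endothelial markers summed to at most 1.73 FPKM, of which PECAM1 alone was tested (log2 difference -0.07, not called), and leukocyte markers to at most 0.88 FPKM with CD3E listed at 0 in every library. The part of COL1A2-expressing or other cells in the results was not tested. The FPKM total of a library lay between 467493 and 475116. The read depth behind these values is unknown, because low FPKM values showed no steps from which reads could be counted back. In RNA from bulk cultures, fewer cells of a kind and less RNA per cell cannot be told apart.

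The list as a whole did not shift in one direction. SLC2A3, PFKL and PFKFB3 rose and HK2 fell in Sh-YAP1, at an adjusted p below 0.05 from limma on log2(FPKM + 1) with Benjamini-Hochberg adjustment over all 14770 genes. These 3 higher and 1 lower calls are 11.4% of the 35 genes tested. Over all genes, 1.75% were called higher and 1.62% lower. Of the 35 genes, 16 had a positive and 19 a negative log2 difference, with a median of -0.04 beside -0.00 for all genes tested. The groups did not overlap for 4 genes that were higher and 5 that were lower in Sh-YAP1, together 25.7% of the 35. Over all genes, 14.6% had every Sh-YAP1 library above every Sh-NC library and 14.7% had the reverse, so the share in the list was near that of all genes. With 3 libraries against 3, an exact two-sided permutation test of a single gene cannot go below p = 0.1.

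**Figure D1:**
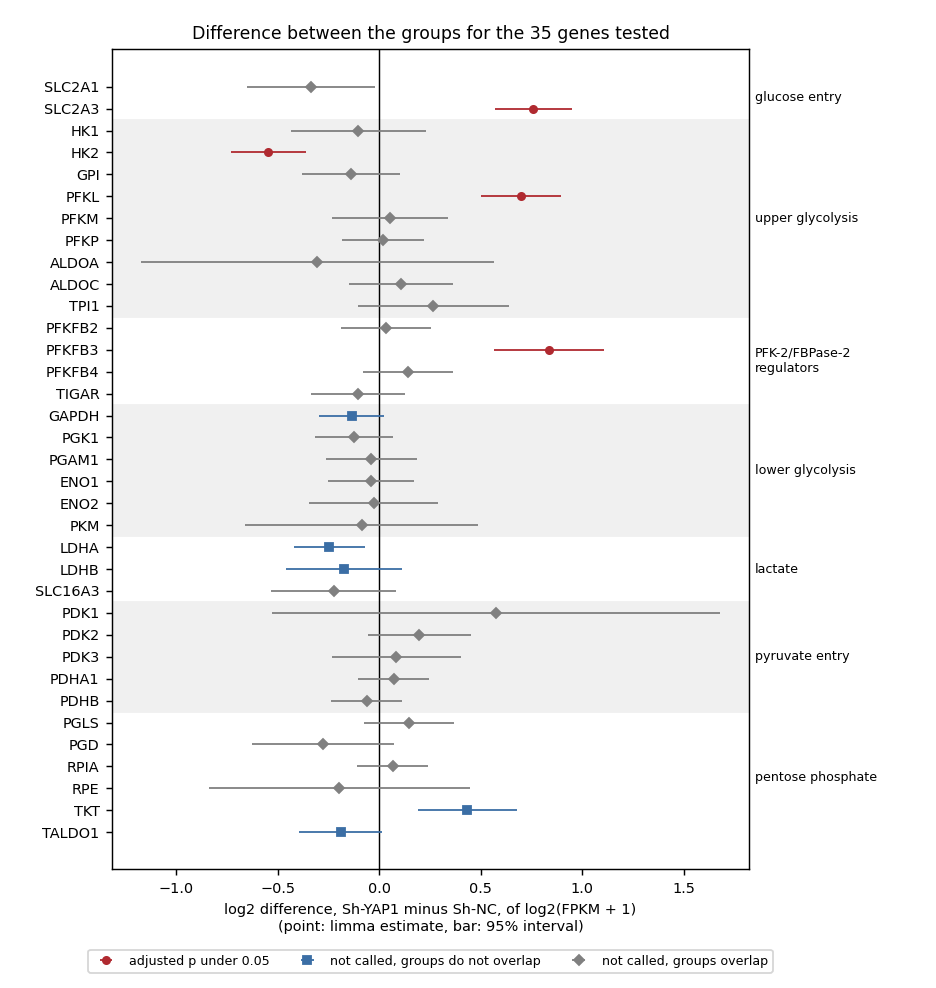
Log2 difference between Sh-YAP1 and Sh-NC (x axis, on the log2(FPKM + 1) scale) for the 35 genes tested, grouped by step of the pathway, with the limma estimate as a point and its 95% interval as a bar. PFKFB3, SLC2A3 and PFKL lie to the right, HK2 lies to the left, and the 6 genes of lower glycolysis lie between -0.13 and -0.03.

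The 36 genes spanned a wide range of levels. By mean FPKM, the highest genes were GAPDH, PKM, ENO1, LDHA and LDHB, in that order. These 5 genes held 73.4% to 77.1% of the summed FPKM of the list in each library. The list summed to 11257 to 12182 FPKM in Sh-NC and to 10706 to 11498 FPKM in Sh-YAP1, which was 2.25% to 2.57% of the library total over the 6 libraries. The 2 ranges overlap. The 4 called genes stood in the lower part of the ranking, between 21st (HK2) and 29th (SLC2A3) of 36, so they carried little of the sum.

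**Figure D2:**
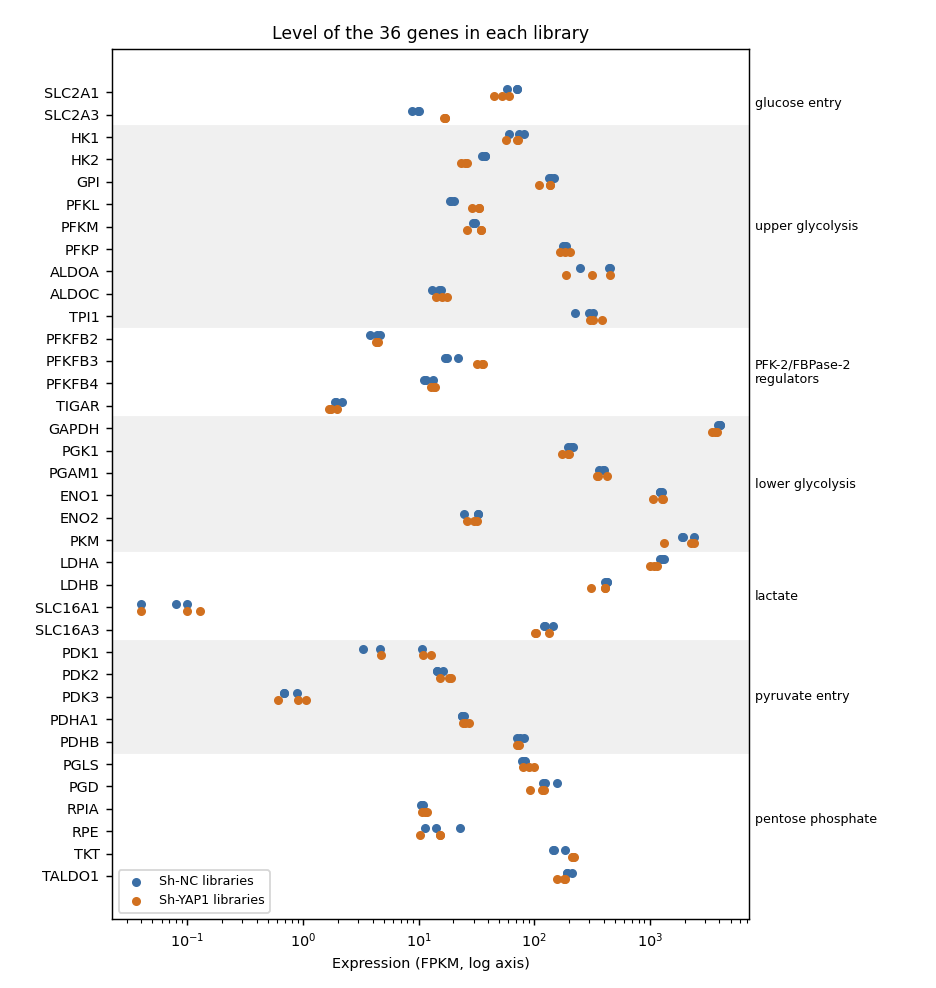
FPKM of each of the 36 genes (x axis, log scale) in the 3 Sh-NC and 3 Sh-YAP1 libraries, 1 point per library, grouped by step. GAPDH lies at 3438 to 4040 FPKM and SLC16A1 at 0.04 to 0.13 FPKM, and the points of the 2 groups overlap for most genes.

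Glucose enters these cells through facilitative transporters, of which SLC2A1 (GLUT1) is the broadly expressed basal form and SLC2A3 (GLUT3) a high-affinity form best known from neurons. SLC2A3 was 8.70, 10.03 and 9.84 FPKM in Sh-NC and 16.83, 16.86 and 16.68 FPKM in Sh-YAP1. Every Sh-YAP1 library lay above every Sh-NC library, and the 3 Sh-YAP1 values were nearly the same. SLC2A3 was 1.76 times higher by the ratio of means, with a log2 difference of 0.76 (SE 0.08, 95% interval 0.57 to 0.95, limma adjusted p = 0.0112). SLC2A1 was 71.09, 71.57 and 58.51 FPKM in Sh-NC and 53.15, 45.3 and 60.82 FPKM in Sh-YAP1. The third library of each group overlapped the other group, and the difference of -0.34 on the log2 scale did not pass the test (limma adjusted p = 0.204, unadjusted p = 0.0404). SLC2A3 made up 12.5% ± 1.76 (SD, n = 3) of the summed FPKM of the 2 transporters in Sh-NC and 24.2% ± 2.80 in Sh-YAP1, without overlap, and the ratio of SLC2A1 to SLC2A3 went from a mean of 7.08 to 3.16. SLC2A14, a near-identical copy of SLC2A3, was listed at 0.04 to 0.23 FPKM in the 6 libraries.

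Hexokinases trap glucose as glucose 6-phosphate. HK1 is the housekeeping form, and HK2 is the inducible form that many tumours express. HK2 was 37.28, 37.92 and 35.16 FPKM in Sh-NC and 23.13, 26.46 and 25.12 FPKM in Sh-YAP1. All Sh-YAP1 libraries lay below all Sh-NC libraries, and within each group the values were close together. HK2 was 1.48 times lower by the ratio of means, a fall of the log2 value with a difference of -0.55 (SE 0.08, 95% interval -0.73 to -0.36, limma adjusted p = 0.0232). HK1, at 57.6 to 81.6 FPKM, overlapped between the groups (log2 difference -0.10). HK2 made up 34.0% ± 3.93 (SD, n = 3) of the 2 hexokinases in Sh-NC and 27.2% ± 2.98 in Sh-YAP1, and the highest Sh-YAP1 share, 30.4%, was just under the lowest Sh-NC share, 31.4%. GPI, which converts glucose 6-phosphate to fructose 6-phosphate, lay between 110 and 147 FPKM with a log2 difference of -0.14 (limma adjusted p = 0.471).

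Phosphofructokinase-1 commits the sugar to glycolysis and is built from liver (PFKL), muscle (PFKM) and platelet (PFKP) subunits. PFKL was 18.94, 20.14 and 18.88 FPKM in Sh-NC and 29.19, 33.67 and 33.26 FPKM in Sh-YAP1. The groups were well apart, with the lowest Sh-YAP1 library still above the highest Sh-NC library. PFKL was 1.66 times higher by the ratio of means, with a log2 difference of 0.70 (SE 0.08, 95% interval 0.50 to 0.89, limma adjusted p = 0.0135). The other subunits differed little in mean level. PFKM averaged 30.3 ± 0.54 FPKM (SD, n = 3) under the control hairpin and 31.8 ± 4.94 FPKM under the YAP1 hairpin. PFKP, the most abundant subunit at 168 to 205 FPKM, had a log2 difference of 0.02, with a 95% interval of -0.18 to 0.22. PFKL therefore made up 8.32% ± 0.39 (SD, n = 3) of the 3 subunits' summed FPKM in Sh-NC and 12.9% ± 0.58 in Sh-YAP1. PFKP made up 78.6% and 74.4%, also without overlap.

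The PFKFB enzymes carry both a kinase that makes fructose 2,6-bisphosphate and a phosphatase that removes it. PFKFB3 is the form with the highest ratio of kinase to phosphatase activity, and TIGAR is a separate phosphatase that lowers the same metabolite. PFKFB3 was 17.7, 16.87 and 22.09 FPKM in Sh-NC and 32.1, 35.83 and 35.12 FPKM in Sh-YAP1. All 3 Sh-YAP1 libraries were above the highest Sh-NC library, which was the third. PFKFB3 was 1.82 times higher by the ratio of means and had the largest log2 difference of the 35 genes, 0.84 (SE 0.11, 95% interval 0.57 to 1.11, limma adjusted p = 0.0211). PFKFB2 lay between 3.81 and 4.67 FPKM, PFKFB4 between 11.1 and 13.9 FPKM and TIGAR between 1.68 and 2.18 FPKM, and none of these 3 passed the test (log2 differences 0.03, 0.14 and -0.10). PFKFB3 made up 53.5% ± 5.52 (SD, n = 3) of the 3 PFKFB genes in Sh-NC and 65.9% ± 1.65 in Sh-YAP1. PFKFB4 made up 34.3% and 25.7%, and PFKFB2 12.2% and 8.46%, each without overlap between the groups.

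**Figure D3:**
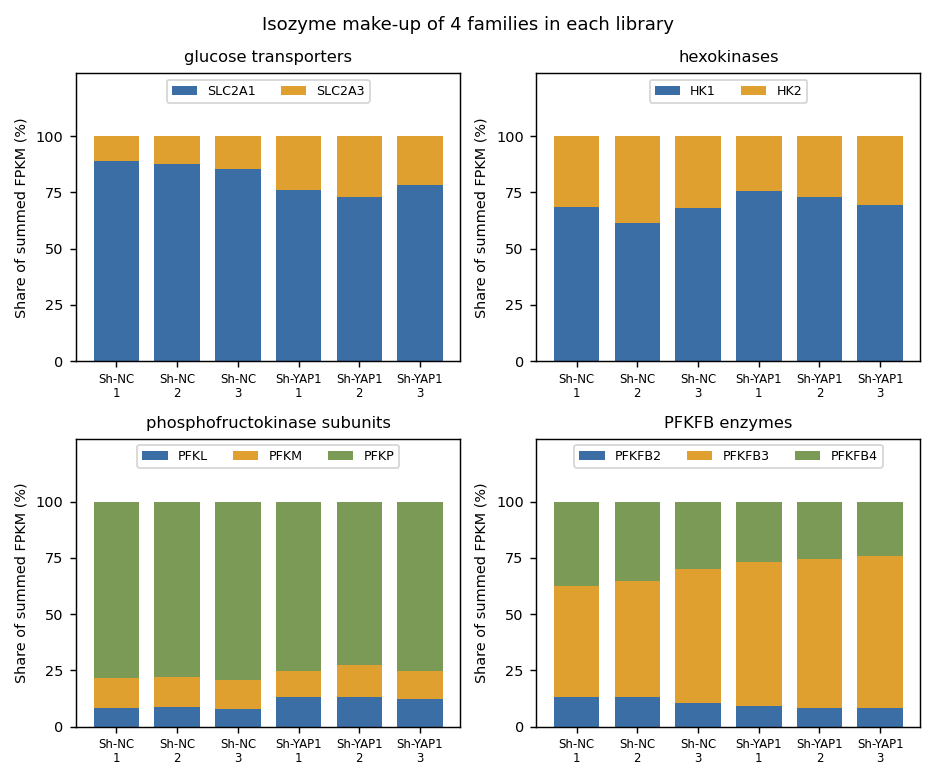
Share of each isozyme in the summed FPKM of its family (y axis, percent) in each of the 6 libraries, for the glucose transporters, hexokinases, phosphofructokinase subunits and PFKFB enzymes. SLC2A3, PFKL and PFKFB3 take a larger share, and HK2 a smaller one, in each Sh-YAP1 library, with no overlap with Sh-NC.

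With fewer libraries, most calls of these 4 genes were lost and the sizes of the differences were not. When each library was left out in turn, the log2 differences kept their direction, between 0.70 and 0.79 for SLC2A3, 0.66 and 0.76 for PFKL, 0.77 and 0.95 for PFKFB3, and -0.59 and -0.50 for HK2. SLC2A3 was called in 5 of 6 such fits and lost its call without Sh-YAP1 replicate 2 (limma adjusted p = 0.0546). PFKL was called in 2 of 6, without Sh-NC replicate 3 or without Sh-YAP1 replicate 1, and its adjusted p from limma reached 0.0633. PFKFB3 was called in 1 of 6, without Sh-NC replicate 3 (highest limma adjusted p = 0.0816). HK2 was called in 0 of 6 (limma adjusted p between 0.0563 and 0.0884).

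The sequence before the start site was read for the called genes that have an entry in RefSeq's promoter windows on GRCh38.p14. PFKL, PFKFB3 and HK2 have one or more, and the 250 bases upstream of the start are shown for the 3 genes because their values moved in different directions. Capitals mark matches, on either strand, to ACGTG (the core of the HIF response element), CACGTG (the E-box that MYC binds, which contains ACGTG on both strands), GGAATG (the core of the TEAD site) or TGACTCA (the AP-1 site). The windows lie at chr21:44299803-44300052 for PFKL, chr10:6202682-6202931 for the second PFKFB3 window and chr2:74834920-74835169 for the second HK2 window, all on the plus strand.
PFKL: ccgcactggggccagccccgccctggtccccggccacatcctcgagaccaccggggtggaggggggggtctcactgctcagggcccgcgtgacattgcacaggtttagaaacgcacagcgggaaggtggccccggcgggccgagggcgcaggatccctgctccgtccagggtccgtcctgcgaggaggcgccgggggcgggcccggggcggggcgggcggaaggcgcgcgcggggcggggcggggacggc
PFKFB3, window 2: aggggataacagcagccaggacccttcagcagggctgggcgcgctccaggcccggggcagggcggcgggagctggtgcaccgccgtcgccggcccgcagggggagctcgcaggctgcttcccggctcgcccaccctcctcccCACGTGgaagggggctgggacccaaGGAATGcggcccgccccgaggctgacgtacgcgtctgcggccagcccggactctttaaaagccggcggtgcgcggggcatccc
HK2, window 2: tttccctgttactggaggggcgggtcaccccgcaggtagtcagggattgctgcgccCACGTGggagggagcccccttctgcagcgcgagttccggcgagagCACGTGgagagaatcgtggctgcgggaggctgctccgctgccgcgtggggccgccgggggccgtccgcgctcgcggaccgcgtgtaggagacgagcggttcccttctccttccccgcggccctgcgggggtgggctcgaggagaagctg

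The PFKL window held none of the 4 motifs searched for. The GCGTG form of the HIF core was not counted, and it stands in the printed PFKL and HK2 sequences. A window without a match may therefore still hold a HIF core. The PFKFB3 window held 1 CACGTG and 1 GGAATG, and the other PFKFB3 window, at chr10:6144671-6144920, held no match. The HK2 window held 2 CACGTG, and the other HK2 window, at chr2:74833877-74834126, held 2 matches to ACGTG outside a CACGTG. Over 35116 windows of the same length, 18.5% held ACGTG, 6.35% CACGTG, 11.9% GGAATG and 4.20% TGACTCA. A match is a stretch of letters and not a site shown to be bound.

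The rest of upper glycolysis showed no call. ALDOA, the main aldolase, which splits fructose 1,6-bisphosphate, was 444.12, 456.75 and 251.09 FPKM in Sh-NC and 188.24, 449.88 and 319.24 FPKM in Sh-YAP1. Each group held both a low and a high library, and the 95% interval of its log2 difference of -0.30 ran from -1.17 to 0.56. ALDOC lay between 13.2 and 17.5 FPKM (log2 difference 0.11). TPI1, which interconverts the 2 triose phosphates, lay between 225 and 383 FPKM with a log2 difference of 0.27 (limma adjusted p = 0.363), and pseudogenes named after it summed to 5.66% to 10.6% of its own FPKM, so its value is less certain.

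In lower glycolysis, which recovers ATP and NADH from the triose phosphates, all 6 genes had small negative log2 differences and none was called. GAPDH, the glyceraldehyde 3-phosphate dehydrogenase often used as a reference gene, was 4039.57, 4016.73 and 3864.09 FPKM in Sh-NC and 3438.05, 3798.7 and 3631.12 FPKM in Sh-YAP1. The groups did not overlap, by a narrow gap, and the log2 difference of -0.13 did not pass the test (95% interval -0.29 to 0.03, limma adjusted p = 0.296). PGK1, which makes the first ATP of this stretch, lay between 173 and 216 FPKM (log2 difference -0.12). The mutase PGAM1 lay between 351 and 426 FPKM, and the enolases ENO1 and ENO2 between 1067 and 1295 FPKM and between 24.8 and 33.0 FPKM, with log2 differences of -0.04, -0.04 and -0.03. The negative signs of PGAM1 and ENO1 turned positive under quantile normalization, at 0.07 and 0.03. ENO1 made up 97.6% of the 2 enolases in both groups.

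PKM, the pyruvate kinase of the last step, was 1948.26, 2392.72 and 1883.51 FPKM in Sh-NC and 2285.59, 1321.06 and 2432.8 FPKM in Sh-YAP1. The second Sh-YAP1 library was the lowest and the third the highest of the 6, so the groups overlapped widely and the log2 difference of -0.09 had an interval of -0.66 to 0.49 (limma adjusted p = 0.869). PKM has 25 transcript rows, of which 23 had a mean of at least 0.1 FPKM. The gene is spliced to the M1 and M2 forms, but the rows carry no transcript names, so no row can be called either form. The row of PKM that stands first in the deposited list was 1118.68, 1488.56 and 356.28 FPKM in Sh-NC and had a listed value of 0 in every Sh-YAP1 library (limma adjusted p = 0.0121 over 77655 rows tested). Its Sh-NC libraries ranged widely, and it held 57.4%, 62.2% and 18.9% of the gene's FPKM there. No fold was computed against a group listed at 0.

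Other PKM rows moved within groups as well as between them. The row listed 458th was 56.8, 52.19 and 27.5 FPKM in Sh-NC and 760.53, 75.7 and 707.98 FPKM in Sh-YAP1, without overlap (limma adjusted p = 0.711). The row listed 34th was 0.02 FPKM in every Sh-NC library and 341.36, 0.01 and 635.87 FPKM in Sh-YAP1. The row listed 2607th was 90.43, 103.94 and 531.26 FPKM in Sh-NC and 524.87, 870 and 409.51 FPKM in Sh-YAP1. These 3 rows were high in some Sh-YAP1 libraries and low in others, or high in 1 Sh-NC library. Without the first listed row, PKM summed to 829.58, 904.16 and 1527.23 FPKM in Sh-NC and 2285.59, 1321.06 and 2432.8 FPKM in Sh-YAP1, which overlapped. Of the 23 PKM rows, 1 was called and 3 had an unadjusted p under 0.05. Among all rows, 0.0322% were called lower and 6.12% had an unadjusted p under 0.05. The call of the first listed row was lost without Sh-NC replicate 1 and without any one of the Sh-YAP1 libraries (limma adjusted p up to 0.0855). Without Sh-YAP1 replicate 2, the row listed 34th was called instead (limma adjusted p = 0.0232).

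**Figure D4:**
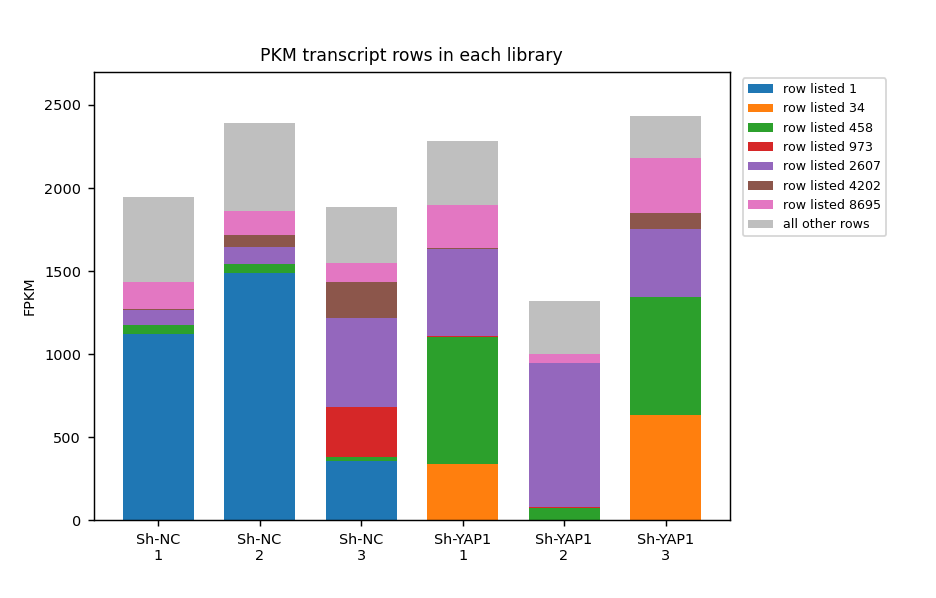
FPKM of the PKM transcript rows (y axis) stacked in each of the 6 libraries. The 7 rows that reach 10% of PKM in any library have a colour each, named by their place in the deposited list, and the rest are grey. The row listed first is present in the Sh-NC libraries and at 0 in the Sh-YAP1 libraries, and the make-up also differs among libraries of one group.

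The split of a gene's FPKM over its rows varied between libraries for much of the list. The 36 genes had 458 rows, of which 294 were tested and 1, the PKM row, was called. Of the tested rows, 31 (10.5%) did not overlap between the groups, beside 13.1% of all rows. In 16 of the 35 genes the same row was the largest in all 6 libraries, and in the other 19 it changed within at least 1 group. HK2's largest row held 98.0% to 99.5% of the gene, PFKL's 77.7% to 96.9% and SLC2A3's 73.9% to 95.4%. PFKFB3 differed from these, with 4 different largest rows over the 6 libraries, so its gene value sums rows that alternate.

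The 3 lactate genes tested had negative log2 differences, and none was called. Lactate dehydrogenase A favours the making of lactate, and the B subunit is known from oxidative tissues. LDHA was 1324.13, 1285.51 and 1237.16 FPKM in Sh-NC and 1096.61, 1148.48 and 1004.12 FPKM in Sh-YAP1. Every Sh-YAP1 library was lower than every Sh-NC library, with a log2 difference of -0.25 and a 95% interval of -0.42 to -0.07, and this did not pass the test over all genes (limma adjusted p = 0.123). LDHB was 412.06, 427.27 and 424.38 FPKM in Sh-NC and 308.84, 410.91 and 410.52 FPKM in Sh-YAP1. The groups were apart by a small gap, and the first Sh-YAP1 library alone was far below (log2 difference -0.17, limma adjusted p = 0.448). Without that library the difference was -0.04. LDHA made up 75.3% and 74.2% of the 2 subunits, with overlap. Pseudogenes named after LDHA summed to 0.25% to 2.45% of its FPKM. SLC16A3 (MCT4), a lactate exporter of glycolytic cells, was 145.29, 122.68 and 125.26 FPKM in Sh-NC and 100.87, 103.79 and 133.72 FPKM in Sh-YAP1 (log2 difference -0.22, limma adjusted p = 0.362). It made up 99.9% of the 2 lactate transporters in both groups, since SLC16A1 stayed between 0.04 and 0.13 FPKM.

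**Figure D5:**
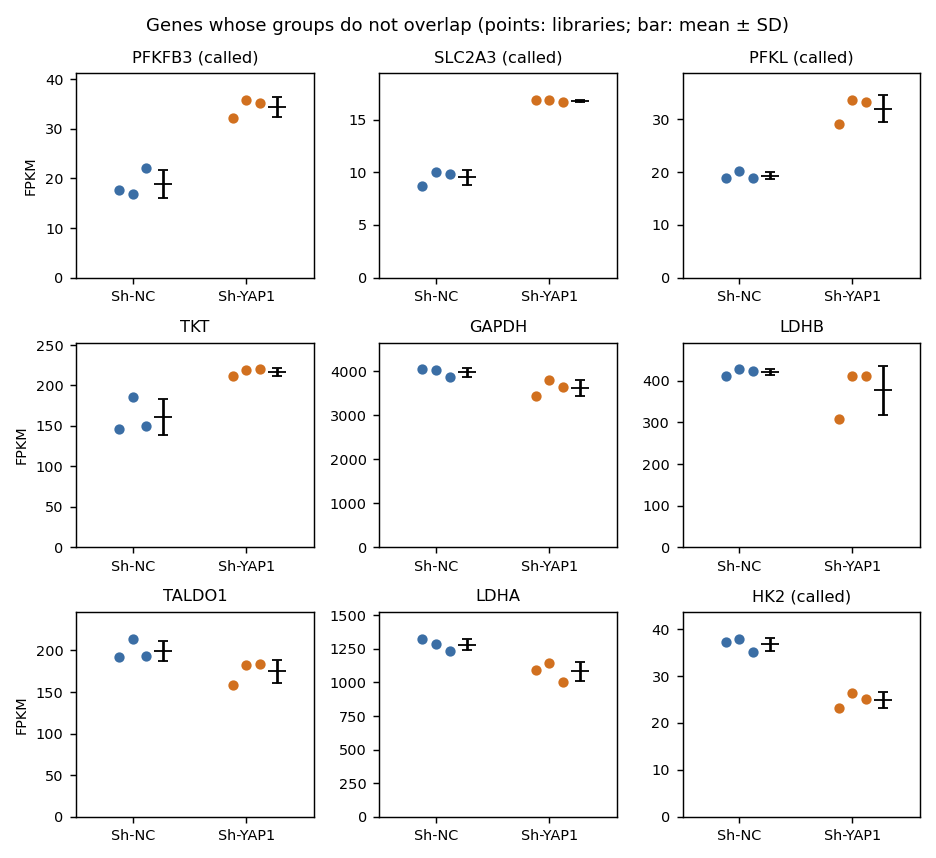
FPKM (y axis, from 0) in each library for the 9 genes whose groups did not overlap, with the mean and SD of each group (n = 3) beside the points. SLC2A3, PFKL, PFKFB3 and TKT are higher and HK2, LDHA, LDHB, GAPDH and TALDO1 lower in Sh-YAP1, and "called" marks the 4 that passed the test.

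None of the 5 genes of the list for pyruvate entry into mitochondria was called, and all overlapped between the groups. PDHA1 and PDHB encode the 2 subunits of the E1 part of pyruvate dehydrogenase and lay between 23.8 and 27.1 FPKM and between 70.8 and 81.5 FPKM (log2 differences 0.07 and -0.06). The kinases PDK1 to PDK3 switch the complex off. PDK1 was 4.68, 10.74 and 3.32 FPKM in Sh-NC and 12.86, 11 and 4.74 FPKM in Sh-YAP1, so both groups held a low and a high library (log2 difference 0.58, 95% interval -0.53 to 1.68, limma adjusted p = 0.512). The difference was 0.27 without Sh-NC replicate 3 and 0.99 without Sh-NC replicate 2. PDK2 lay between 14.5 and 19.2 FPKM and PDK3 between 0.61 and 1.07 FPKM (log2 differences 0.20 and 0.08).

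In the pentose phosphate pathway, the 2 enzymes of the non-oxidative branch that move carbon units between sugars lay on opposite sides. TKT (transketolase) was 146.71, 186.35 and 149.91 FPKM in Sh-NC and 211.66, 218.64 and 219.82 FPKM in Sh-YAP1. All Sh-YAP1 libraries were above all Sh-NC libraries, of which the second was the nearest. TKT was 1.35 times higher by the ratio of means, with a log2 difference of 0.43 (SE 0.10, 95% interval 0.19 to 0.68), and missed the threshold (limma adjusted p = 0.0747), though it passed under quantile normalization (limma adjusted p = 0.0363). TALDO1 (transaldolase) was 191.61, 213.78 and 193.28 FPKM in Sh-NC and 158.96, 182.17 and 183.76 FPKM in Sh-YAP1, without overlap and with a log2 difference of -0.19 (limma adjusted p = 0.253). The oxidative branch gave no call. PGLS, the lactonase, lay between 78.3 and 99.9 FPKM (log2 difference 0.15). PGD, which releases NADPH and ribulose 5-phosphate, was 119.03, 123.11 and 158.15 FPKM in Sh-NC and 120.72, 116.22 and 92.55 FPKM in Sh-YAP1, with overlap (log2 difference -0.28, limma adjusted p = 0.325). RPIA, the isomerase, lay between 10.5 and 11.8 FPKM and RPE, the epimerase, between 10.3 and 23.1 FPKM (log2 differences 0.07 and -0.20).

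Companion lists give the surroundings of these genes. Over all 14770 genes, 21.9% had an unadjusted p under 0.05, and the counts at that level in these lists are read against this share. Of 30 other glycolysis and pentose phosphate genes, 18 were tested and 0 were called by limma, with 2 at an unadjusted p under 0.05. The largest differences there were those of H6PD, an oxidative enzyme of the endoplasmic reticulum (log2 difference 0.64, limma adjusted p = 0.259), and the transporter SLC2A6 (-0.43, limma adjusted p = 0.414). H6PD was 0.31 without Sh-NC replicate 2, its lowest library, and 0.93 without Sh-NC replicate 1, and SLC2A6 ran from -0.67 without Sh-NC replicate 1 to -0.21 without Sh-YAP1 replicate 2. Of 10 genes of the pyruvate dehydrogenase complex and the pyruvate carriers, 0 were called by limma, with 4 at an unadjusted p under 0.05. The groups did not overlap for 2 that were higher and 2 that were lower in Sh-YAP1. That was 40.0% of the 10, beside 29.35% of all genes. PDK4, a further pyruvate dehydrogenase kinase, was 0.68, 0.74 and 0.59 FPKM in Sh-NC and 1.18, 1.38 and 1.61 FPKM in Sh-YAP1, without overlap (ratio of means 2.07, log2 difference 0.51, limma adjusted p = 0.0639). At this low level the difference was 1.04 with a pseudocount of 0.01 FPKM, and it passed the test only with no mean-variance trend (limma adjusted p = 0.0486), among adjusted p from 0.0486 to 0.176. PDP2, a phosphatase that reactivates the complex, had a log2 difference of -0.32, which was -0.15 without Sh-YAP1 replicate 2.

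Sugar storage and the hexosamine branch held 3 calls, where 1.75% of all genes were called higher and 1.62% lower. Of 17 glycogen and gluconeogenesis genes, 15 were tested, 1 rose and 1 fell, and 6 had an unadjusted p under 0.05. GYS1, the glycogen synthase of muscle and most other tissues, rose from 11.7 ± 0.70 to 15.95 ± 0.47 FPKM (SD, n = 3, log2 difference 0.41, limma adjusted p = 0.0413). PGM2, a phosphopentomutase, fell from 14.0 ± 0.43 to 9.66 ± 0.19 FPKM (log2 difference -0.49, limma adjusted p = 0.0232). FBP1, the fructose bisphosphatase that opposes phosphofructokinase-1, did not pass (log2 difference -0.63, limma adjusted p = 0.103). Of 7 hexosamine genes, 1 fell and 3 had an unadjusted p under 0.05. UAP1, which makes UDP-N-acetylglucosamine, fell from 66.7 ± 2.19 to 47.8 ± 1.06 FPKM (SD, n = 3, log2 difference -0.47, limma adjusted p = 0.0191). GFPT2, which draws fructose 6-phosphate into that branch, had a log2 difference of -0.37 and was not called. GYS1, PGM2 and UAP1 each lost the call in all 6 fits that left out a library, with differences that stayed between 0.38 and 0.46, -0.51 and -0.47, and -0.50 and -0.45. GYS1 also lost it with no filter on low values and with no mean-variance trend (limma adjusted p up to 0.0658).

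Of 17 HIF-1 target genes outside glycolysis, 16 were tested, and 2 rose and 0 fell by limma. Their median log2 difference was 0.17, and 7 had an unadjusted p under 0.05, beside 21.9% of all genes. Among all genes, 1.75% were called higher and 1.62% lower, and the median was -0.00. The groups did not overlap for 6 of the 16 that were higher and 1 that was lower, together 43.75%, beside 29.35% of all genes. ERO1A, an oxidase of protein folding, rose from 20.1 ± 1.12 to 34.8 ± 2.97 FPKM (SD, n = 3, log2 difference 0.76, limma adjusted p = 0.0129). DDIT4, an inhibitor of mTORC1 signalling, rose from 74.3 ± 4.86 to 97.3 ± 3.96 FPKM (log2 difference 0.39, limma adjusted p = 0.0472). ERO1A was called in 3 of 6 fits that left out a library and DDIT4 in 0 of 6. DDIT4 also lost its call with no filter and with no mean-variance trend (limma adjusted p up to 0.0820). NDRG1 was 69.98, 61.35 and 65.54 FPKM in Sh-NC and 130.38, 86.46 and 139.3 FPKM in Sh-YAP1, without overlap, and was not called (log2 difference 0.82, limma adjusted p = 0.0652), though it was called in 1 of 6 fits that left out a library, without Sh-YAP1 replicate 2 (1.03, limma adjusted p = 0.0335). Of 11 regulators of glycolytic transcription, 10 were tested and 0 were called by limma, with 5 at an unadjusted p under 0.05. The largest differences were those of the co-activator PPARGC1A (log2 difference 0.55, limma adjusted p = 0.0518) and of ARRDC4, a relative of TXNIP (-0.54, limma adjusted p = 0.0578). Both were low genes, with ratios of Sh-YAP1 to Sh-NC means of 1.84 and 0.53, and a pseudocount of 0.01 FPKM moved the differences to 0.87 and -0.91. PPARGC1A passed with that pseudocount, with no mean-variance trend and with sums of rows that averaged 0.1 FPKM or more, among limma adjusted p from 0.0352 to 0.160. ARRDC4 passed under quantile normalization and with no mean-variance trend, among limma adjusted p from 0.0450 to 0.160.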

How the data were processed

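Total RNA was sequenced from MDA-MB-231 cells in 6 libraries, 3 labelled Sh-NC and 3 labelled Sh-YAP1. The authors deposited FPKM values per transcript row under a gene identifier, 1 table per library with the rows in the same order and no transcript names. The submitters' processing notes name HISAT2 2.0, Bowtie 0.12.2 and the build hg19, without their roles. The quantification tool, the annotation and its filters are not given in the sources used here. Gene coordinates were therefore not used, and promoter windows are those of RefSeq on GRCh38.p14. FPKM per library fixes no read depth, so no counting interval was given.

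The 229420 rows were summed to 60612 gene identifiers, of which 60401 had a symbol. Genes that averaged 0.5 FPKM or more, and rows that averaged 0.1 FPKM or more, were tested with limma 3.58.1 (R 4.3.3) on log2(FPKM + 1), all 6 libraries, with a mean-variance trend, and p-values were adjusted by Benjamini-Hochberg across the genes or rows of a fit, at 0.05. A fold on this scale understates the change of low genes, and ratios of mean FPKM are given for the called genes of the list, YAP1, TKT and the low genes PDK4, PPARGC1A and ARRDC4. "Called" means an adjusted p under 0.05. The fit was also run on simulated data with differences larger than any in the list. That run therefore does not bear on differences of the size seen for the list. Figures were drawn with matplotlib 3.10.9 and tables made with pandas 2.3.3 (Python 3.11.15).

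The 36 genes and the companion lists were chosen with earlier results of these data known. All 36 genes are named, and of each companion list the genes called and the 2 with the largest absolute log2 difference. Alternatives were pseudocounts of 0.1 and 0.01, quantile normalization, median centring, no filter, a filter at 1 FPKM, and no trend. A replicate block was also fitted, and each library was left out in turn. Further alternatives summed only rows that averaged 0.1 FPKM or more, or added the FPKM of 119 pseudogenes named after 17 of the genes.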

Additional observations from a re-analysis of the deposited data

How the results depend on the processing

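Of all genes, 499 were called, 232 with no filter on low values and between 78 and 171 when 1 library was left out. Of the 35 genes of the list, 4 were called, between 0 and 3 when 1 library was left out, and 5 under quantile normalization, which added TKT. Their median log2 difference was -0.038, 0.02924 under quantile normalization and between -0.05124 and 0.02366 with a library left out. Of the PKM rows, 1 was called, and between 0 and 1 with a library left out. The cause of these changes was not tested.

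Under quantile normalization PGAM1 was 0.07283 and ENO1 0.03056, positive rather than negative. With a library left out, genes that were not called changed sign, with log2 differences between -0.2226 and 0.0006696 for HK1, -0.01642 and 0.1864 for PFKM, -0.05303 and 0.08897 for PFKP, -0.03306 and 0.0856 for PFKFB2, -0.5945 and 0.03172 for ALDOA, -0.1286 and 0.01092 for PGAM1, -0.0906 and 0.04907 for ENO1, -0.1567 and 0.04649 for ENO2, -0.2475 and 0.1927 for PKM, and -0.4063 and 0.07735 for RPE. A further 16 genes that were not called kept their sign and moved by over 1.5 times, namely GPI (-0.19 to -0.04), PFKFB4 (0.09 to 0.22), ALDOC (0.04 to 0.18), TPI1 (0.11 to 0.37), PGK1 (-0.16 to -0.06), LDHB (-0.24 to -0.04), SLC16A3 (-0.35 to -0.15), PDK1 (0.27 to 0.99), PDK3 (0.0052 to 0.19), PDHA1 (0.03 to 0.11), PDHB (-0.11 to -0.0094), PGLS (0.07 to 0.23), PGD (-0.35 to -0.15), RPIA (0.04 to 0.10), TALDO1 (-0.23 to -0.12) and TIGAR (-0.15 to -0.06).

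The labels do not say whether replicate numbers pair the libraries of the groups. After the group mean was removed, libraries with the same number had correlations over genes of -0.0285, 0.0621 and 0.0042. These values show no sign of pairing. A correlation over all genes cannot exclude it, because it comes from 3 libraries per group. With the replicate block, 1 gene of all genes was called (2779 at an unadjusted p under 0.05), 0 of the list and 0 PKM rows, and the adjusted p from limma was 0.103 for SLC2A3 and PFKL, 0.116 for PFKFB3 and 0.130 for HK2. Outside the fits that left out a library, the genes of the list, YAP1, AXL, the named genes of the metabolic and regulator lists and the first listed PKM row kept their direction and their side of the threshold in 475 pairs of a gene and an alternative, lost a call in 17, gained one in 7 and changed sign in 2. SLC2A3, PFKL, PFKFB3 and HK2 kept their calls in every fit on all 6 libraries other than the replicate block.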
